A study of Mus musculus with 4 samples.

Results

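The genes of the CD3 complex, Cd3e, Cd3d, Cd3g and Cd247, were examined for open chromatin in mouse T-helper 17 (Th17) cells. The 4 genes were chosen as the subunits of the complex, by name and not by a measured value, out of 21938 protein-coding genes in the GENCODE M21 annotation of mm10. Every open region overlapping their gene bodies or the 30 kb on each side was taken. This gave 41 regions of 101015 in the union of the 4 replicates. They come from ATAC-seq, an assay whose transposase cuts and tags accessible DNA, of primary Th17 cells of strain C57BL/6NJ. The only group, Th17, holds 4 biological replicates, and there is no other condition to compare with. Age is labelled unknown and sex not collected, and all 4 replicates carry the same donor identifier, so the spread given here is the spread between these samples. The deposited lists of open regions hold no read counts, so the depth behind each value is unknown and counting error cannot be given.

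CD3 epsilon, encoded by Cd3e, pairs with CD3 delta (Cd3d) or with CD3 gamma (Cd3g), and CD247, the zeta chain, forms a homodimer. These dimers assemble with the antigen-binding chains of the T-cell receptor, are needed to bring it to the cell surface, and carry the immunoreceptor tyrosine-based activation motifs (ITAMs) that the kinase Lck phosphorylates and the kinase Zap70 then binds. In human, T-cell enhancers have been described at the 3′ ends of the CD3D and CD3E genes.

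Cd3g, Cd3d and Cd3e are neighbours on chromosome 9, and Cd247 lies alone on chromosome 1. Cd3g (ENSMUSG00000002033.14, chr9:44969572-44980431, minus strand) and Cd3d (ENSMUSG00000032094.8, chr9:44981786-44987339, plus strand) are divergent genes whose starts are 1355 bp apart. Cd3e (ENSMUSG00000032093.7, chr9:44998740-45009627, minus strand) faces Cd3d, and 11400 bp separate their 3′ ends. Cd247 (ENSMUSG00000005763.15, chr1:165788681-165877277, plus strand) is the longest, with 88597 bp against 5554 to 10888 bp for the other genes, and its first intron alone spans 66279 bp.

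The sequences shown first are the 250 bases upstream of each RefSeq start (build GRCm38.p6, the mm10 assembly), because a region covered the start of all 4 genes. All 4 genes were matched by symbol in the RefSeq promoter table. Each line reads 5′ to 3′ on the gene's own strand, and capitals mark matches, on either strand, to 6 consensus strings. RUNX factors, which are needed in T-cell development, were searched as TGTGGT, and factors of the ETS family as AGGAAG. The E-box, bound by E proteins, was searched as CAGNTG, and the site of GATA factors as AGATAA. The string for TCF1 and LEF1, searched as TCAAAG, stands beside the one for AP-1, the activation-induced dimer, searched as TGANTCA. The stretches lie at chr9:45009612-45009861 for Cd3e, chr9:44981536-44981785 for Cd3d, chr9:44980432-44980681 for Cd3g and chr1:165788431-165788680 for Cd247.
Cd3e promoter: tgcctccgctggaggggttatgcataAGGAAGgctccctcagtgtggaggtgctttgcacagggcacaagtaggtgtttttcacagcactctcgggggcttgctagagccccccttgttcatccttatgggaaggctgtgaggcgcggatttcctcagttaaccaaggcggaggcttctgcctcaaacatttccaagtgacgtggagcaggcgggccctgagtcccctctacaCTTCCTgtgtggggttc
Cd3d promoter: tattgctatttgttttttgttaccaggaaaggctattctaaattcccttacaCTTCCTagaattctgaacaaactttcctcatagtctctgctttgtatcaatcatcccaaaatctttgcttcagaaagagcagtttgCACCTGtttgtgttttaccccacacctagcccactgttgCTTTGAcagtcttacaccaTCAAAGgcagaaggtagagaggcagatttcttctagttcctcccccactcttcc
Cd3g promoter: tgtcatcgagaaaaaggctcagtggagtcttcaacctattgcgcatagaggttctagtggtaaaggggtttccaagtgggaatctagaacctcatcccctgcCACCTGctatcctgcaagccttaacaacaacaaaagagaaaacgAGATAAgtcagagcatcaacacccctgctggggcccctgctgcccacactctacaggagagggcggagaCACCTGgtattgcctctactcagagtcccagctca
Cd247 promoter: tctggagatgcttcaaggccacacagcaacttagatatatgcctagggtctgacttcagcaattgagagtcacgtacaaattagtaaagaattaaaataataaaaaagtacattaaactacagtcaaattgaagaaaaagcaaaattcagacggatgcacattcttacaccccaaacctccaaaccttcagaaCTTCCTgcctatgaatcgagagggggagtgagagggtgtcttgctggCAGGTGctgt
No matches overlapped one another in the printed sequences. ETS strings were found in Cd3e, Cd3d and Cd247, 3 of the 4 genes, and in 29.5% of 32851 RefSeq promoters of the same length. E-box strings were found in Cd3d, Cd3g and Cd247, again 3 of 4, and in 44.8% of all promoters. The TCF/LEF string occurred in Cd3d only of the 4, as 2 copies on opposite strands, and in 13.8% of all promoters. The GATA string occurred in Cd3g only of the 4 (9.99% of all promoters), and RUNX and AP-1 strings in none of the 4 (14.0% and 6.75% of all promoters).

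The second set of sequences shows the 101 bases centred on the summits of the main regions away from the starts, on the plus strand of the same build. They are the region 9518 bp upstream of the Cd3e start (chr9:45019095-45019195), the region 7966 bp upstream of the Cd247 start (chr1:165780665-165780765), the summit 1435 bp into Cd247 (chr1:165790066-165790166) and the widest region of the Cd247 first intron, 14005 bp into the gene (chr1:165802636-165802736). The last line is the short stretch in the Cd3e 3′ untranslated region that carries both strings at that summit (chr9:44999334-44999351).
Upstream of Cd3e: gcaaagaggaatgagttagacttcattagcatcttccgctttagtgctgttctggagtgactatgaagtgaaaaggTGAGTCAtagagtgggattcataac
Upstream of Cd247: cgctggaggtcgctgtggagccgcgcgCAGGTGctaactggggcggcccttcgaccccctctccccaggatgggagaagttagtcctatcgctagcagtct
Cd247 start of first intron: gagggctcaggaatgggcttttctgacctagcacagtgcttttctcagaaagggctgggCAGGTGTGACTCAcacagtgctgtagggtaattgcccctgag
Cd247 first intron: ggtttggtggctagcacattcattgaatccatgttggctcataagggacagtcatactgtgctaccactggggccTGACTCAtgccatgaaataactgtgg
Cd3e 3′ end: TCAAAGgctgtTGAGTCA
At the start of the first intron of Cd247 the E-box CAGGTG and the AP-1 string TGACTCA stand end to end. In the Cd3e 3′ untranslated region the TCF/LEF string and the AP-1 string are a few bases apart.

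Most regions around the CD3 genes were found in every replicate. Of the 41 regions, 33 were shared, meaning that all 4 replicates had an overlapping region. This is a share of 80.5%, and 68% of all 101015 union regions were shared. The chromosome 9 window (chr9:44939572-45039627) held 9 shared regions of 14, slightly below the share of all union regions. The Cd247 window (chr1:165758681-165907277) held 24 of 27, so the higher share came from that window alone. The 8 others were in 3 replicates (3 regions) or in 1 replicate (5 regions). By replicate the lists held 39, 39, 37 and 36 regions in the windows for replicates 1 to 4, of 83904, 85127, 85293 and 84137 regions in all.

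The windows were more densely covered than the assembly as a whole, and the coverage of other gene windows is not given here. Regions covered 14.6, 13.7, 14.5 and 14.3% of the chromosome 9 window in replicates 1 to 4 (14.3 ± 0.422%, SD, n = 4). They covered 14.8, 14.5, 16.5 and 16.1% of the Cd247 window (15.5 ± 0.969%), against 2.37 ± 0.0773% of the assembly, gaps included. Every replicate had about the same coverage in both windows, and none was near the level of the assembly.

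**Figure D1:**
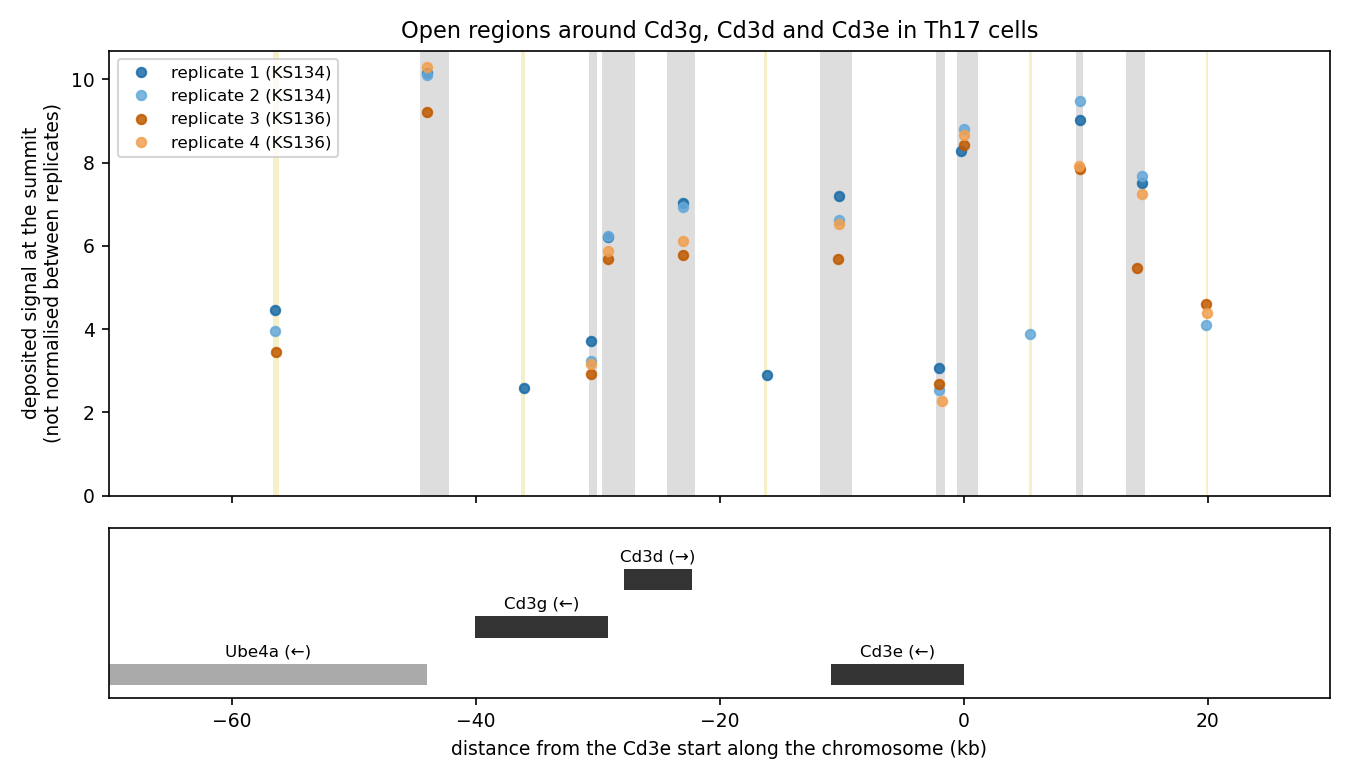
Deposited signal at the summit of each open region (y axis, enrichment over background, not normalised between replicates) against distance from the Cd3e start along the chromosome in kb (x axis), 1 point per replicate; grey bands are shared regions, yellow bands regions missing from at least 1 replicate, and bars below are protein-coding genes with arrows for the strand. The shared regions sit at the gene starts, at the 3′ ends of Cd3d and Cd3e, inside Cd3g and Cd3e and upstream of Cd3e; the Ube4a start carries the highest signal, up to 10.3.

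CD3 epsilon is the subunit common to both heterodimers. Its promoter region (chr9:45009067-45010789) had a deposited signal, which is enrichment over background, of 8.28, 8.81, 8.42 and 8.66 in replicates 1 to 4. Since signal is not normalised between replicates, it was ranked within each replicate among the 68696 shared regions, where it stood at percentiles 57.6, 59.4, 61.2 and 61.7 (60.0 ± 1.86, SD, n = 4). It was thus somewhat stronger than the middle region in every replicate. The summit lay within 6 bp of the annotated start in replicates 2, 3 and 4 and 209 bp downstream of it in replicate 1.

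CD3 gamma and CD3 delta, the alternative partners of CD3 epsilon, shared 1 promoter region (chr9:44979982-44982673). It covered both starts in all 4 replicates, so their promoter values are the same measurement. Its signal was 6.20, 6.25, 5.68 and 5.89 in replicates 1 to 4, at percentiles 39.7, 38.0, 36.4 and 36.9 (37.8 ± 1.46). The region was wide, with a mean of 2510 bp per replicate, and its summit was 17 to 23 bp upstream of the Cd3g start and 1332 to 1338 bp upstream of the Cd3d start. The highest point of this shared region was therefore at Cd3g in all 4 replicates.

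The Cd247 promoter region (chr1:165788592-165790946) reached from the start into the first intron. Its signal was 8.95, 9.08, 8.04 and 8.47 in replicates 1 to 4, at percentiles 62.5, 61.2, 58.2 and 60.1 (60.5 ± 1.80). The region covered the start in all 4 replicates, but its summit lay 1454, 1454, 1416 and 1417 bp inside the gene. Of the 13057 genes with a region at the start in all 4 replicates, 93.1% also had a summit within 1 kb of it. Among the 4 CD3 genes Cd3e and Cd3g did, and Cd3d and Cd247 did not.

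Within replicates, the Cd3e promoter region stood 22.2 ± 3.29 percentile points above the Cd3g and Cd3d region (SD, n = 4), higher in 4 of 4 replicates. The Cd247 promoter region stood 22.8 ± 0.610 points above the Cd3g and Cd3d region, also in 4 of 4. Both differences exceeded the spread between replicates, but the exact two-sided sign-flip test gave p = 0.125 for each, the smallest value that 4 replicates allow, and 0.188 after Benjamini-Hochberg adjustment over the 3 pairs of distinct promoter regions. Cd247 and Cd3e differed by 0.530 ± 3.52 points (exact p = 0.75, adjusted 0.75), less than the spread. The sign of that difference followed the library tag in the deposited region names: Cd247 was higher by 4.93 and 1.72 points in replicates 1 and 2 (tag KS134), and lower than Cd3e in replicates 3 and 4 (tag KS136), with differences of -2.91 and -1.62. The part of the tag in this difference was not tested. Ranked by -log10 q in place of signal, Cd247 stood 5.54 ± 2.03 points above Cd3e, higher in 4 of 4 replicates (exact p = 0.125, adjusted 0.125), so neither the small difference nor its change of sign held under that ranking. The differences from the Cd3g and Cd3d region were then 6.36 ± 1.35 points for Cd3e and 11.9 ± 0.741 points for Cd247, again in 4 of 4 replicates.

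**Figure D2:**
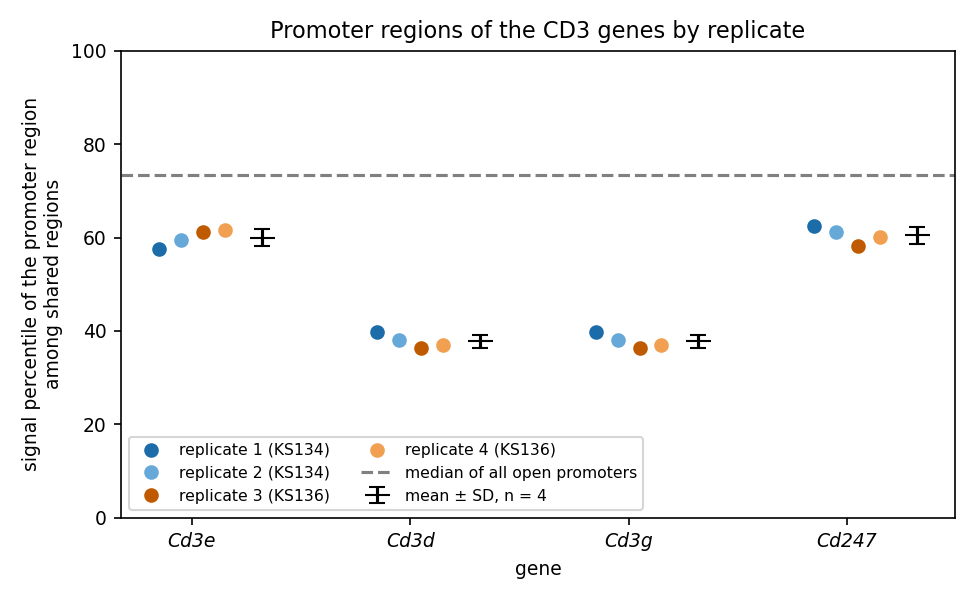
Signal percentile of the promoter region among shared regions (y axis, percent) for each CD3 gene (x axis), with 1 point per replicate, coloured by library tag, and the mean ± SD (n = 4) beside them; Cd3d and Cd3g share 1 region. Cd3e and Cd247 lie near 60.0, the shared Cd3d and Cd3g region near 37.8, all below the dashed median of open promoters at 73.4.

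All 4 CD3 genes had an open promoter, defined as a region within 1 kb of the gene's most upstream annotated start in each of the 4 replicates. These are 3 distinct regions. Of all protein-coding genes, 59.5% had one, or 64.1% where any annotated start counted. CpG content at the start, taken as the observed over expected CpG ratio within 500 bp, was low at all 4 genes: 0.274 for Cd3e, 0.203 for Cd3d, 0.161 for Cd3g and 0.343 for Cd247. With all genes split into 5 equal classes by this ratio, Cd3g fell in the lowest class, where 8.61% of promoters were open, and Cd3e, Cd3d and Cd247 in the next, where 26.8% were, against 96.2% in the highest class. The 4 open promoters thus belonged to the CpG-poor classes in which open promoters were the minority.

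By signal, the CD3 promoters were open but weaker than the median open promoter. That median, taken over open promoters of all CpG classes, stood at percentile 73.4 of the shared regions. Strength within the CpG-poor classes was not compared. Among the 13057 open promoters, Cd247 stood at percentile 34.1, Cd3e at 33.4, and Cd3d and Cd3g at 16.2. No median of open promoters by the deposited -log10 q is given here. Ranked by that value in place of signal, the same regions stood higher among shared regions. Cd247 was at 89.5, Cd3e at 84.0 and the Cd3g and Cd3d region at 77.6. Their signal percentiles were closest to those of genes with other roles: Cd3e lay between Hnrnpul1 and Dmwd (both at 60.0), Cd247 between Polr1a and Snrpb (both at 60.5), and the Cd3g and Cd3d region between Avpr1a (37.8 ± 12.9) and Wipf2 (37.7 ± 4.15), each a mean over 4 replicates.

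Regions covered both 3′ ends that face each other on chromosome 9. At the Cd3d 3′ end (chr9:44985309-44987599) the signal was 7.03, 6.94, 5.78 and 6.13 in replicates 1 to 4, at a mean percentile of 42.1 ± 4.30. The summit was in the 3′ untranslated region of Cd3d, 4819 bp from its start, and the region also lay within 1 kb of the start of a short Cd3d transcript. The signal percentile was higher in replicates 1 and 2 (47.0 and 44.2) than in replicates 3 and 4 (37.6 and 39.5).

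At the Cd3e 3′ end (chr9:44997866-45000443) the strongest signal was 7.21, 6.61, 5.70 and 6.53 in replicates 1 to 4, at a mean percentile of 42.6 ± 5.13. It was listed as 2 regions in replicates 1, 2 and 4 and as 1 in replicate 3. The summit was 10263 bp from the Cd3e start in the 3′ untranslated region, close to the start of the antisense RNA Gm48719. Its percentiles were 48.9, 41.3, 36.5 and 43.5. By signal, both 3′ ends stood above the Cd3g and Cd3d promoter region in 4 of 4 replicates. In replicate 3 the Cd3e 3′ end, at 36.5, was nearly level with the 36.4 of that promoter region. By -log10 q the Cd3d 3′ end (81.8) still stood above that region (77.6), but the Cd3e 3′ end (53.7) stood below it in 4 of 4 replicates. These differences were not tested.

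Upstream of Cd3e, no protein-coding start lies within the window, but the Mpzl2 start lies 172 bp past its edge. The region 9518 bp upstream (chr9:45018846-45019420) was narrow, with a mean of 550 bp. Its signal of 9.02, 9.48, 7.84 and 7.91 in replicates 1 to 4 gave a percentile of 59.7 ± 4.29. By replicate it stood at 62.9, 63.9, 56.6 and 55.5, above the Cd3e promoter region in replicates 1 and 2 and below it in replicates 3 and 4, and by -log10 q at 70.8, below the 84.0 of that promoter. A second upstream region, 14608 bp away (chr9:45022930-45024511), had signals of 7.51, 7.67, 5.47 and 7.24, with replicate 3 far below the others.

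The intron regions of the short genes were weak in signal. The region in the Cd3g intron, 1355 bp from its start, had signals of 3.71, 3.23, 2.91 and 3.17 in replicates 1 to 4 and stood at percentile 7.87 ± 2.91. The Cd3e intron region, 2025 bp from the start, had signals of 3.06, 2.54, 2.67 and 2.26 and stood at 3.19 ± 2.12. Both were shared by all 4 replicates, and by -log10 q they stood at percentiles 40.8 (Cd3g) and 19.8 (Cd3e).

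**Figure D3:**
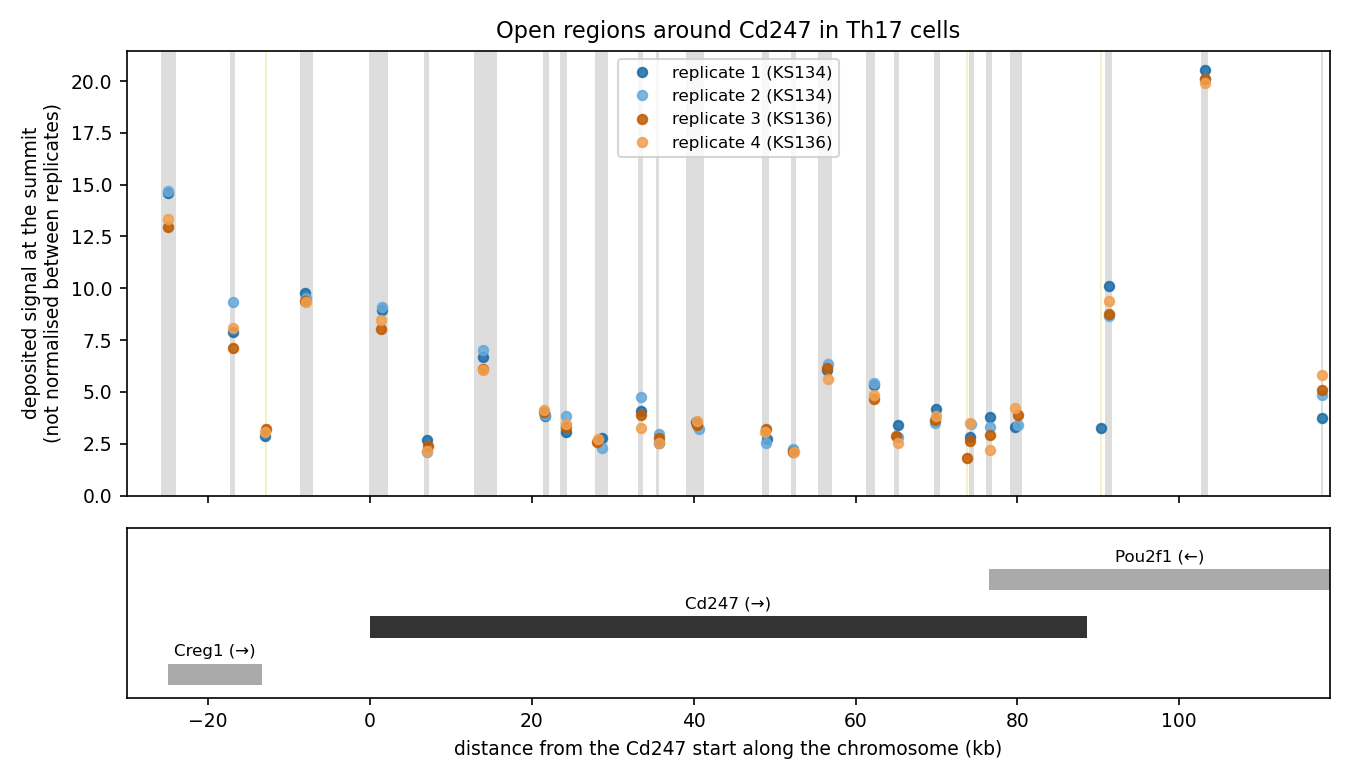
Deposited signal at the summit of each open region (y axis, enrichment over background) against distance from the Cd247 start along the chromosome in kb (x axis), 1 point per replicate; grey bands are shared regions, yellow bands regions missing from at least 1 replicate, and bars below are protein-coding genes. Shared regions are spread along the whole Cd247 body, most with signal below 5, and the highest signal, 19.9 to 20.5, lies in Pou2f1.

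Cd247 had 18 shared regions inside its body, 14 of them in the first intron. Those 76622 and 79864 bp from the start also lay in the overlapping gene Pou2f1, with summits in its untranslated region. The 18 regions were mostly weak in signal, with a median signal percentile of 9.51 and a range of 0.806 to 60.5. Of the 18, 1, the promoter region, stood above percentile 50. Ranked by -log10 q, their median percentile was 19.8 and 4 of the 18 stood above percentile 50. After the promoter, the strongest in the body was the region 14005 bp into the gene (chr1:165801584-165804383). Its signal was 6.70, 7.01, 6.09 and 6.05 in replicates 1 to 4, at percentile 42.0 ± 3.07. With a mean width of 2777 bp it was the widest of the 33 shared regions, and by -log10 q it stood at percentile 89.97.

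Further into the first intron, the region 56539 bp from the start (chr1:165843989-165845779) had signals of 6.06, 6.36, 6.16 and 5.62 in replicates 1 to 4 and stood at percentile 38.1 ± 3.13. The weakest region of the body stood at 0.806 ± 0.143, with signals of 2.21, 2.26, 2.11 and 2.09. It was present in all 4 replicates nonetheless.

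By signal percentile, the strongest region whose nearest annotated protein-coding start belonged to a CD3 gene was upstream of Cd247. It lay 7966 bp from the start (chr1:165779985-165781650), within 1 kb of the start of the non-coding transcript Gm16565, which runs into Cd247. Its signal was 9.77, 9.51, 9.38 and 9.32 in replicates 1 to 4, at percentile 66.6 ± 1.84. By -log10 q it stood at 74.7, below all 3 CD3 promoter regions. Of the 27 shared regions nearest to a CD3 gene start, 4 stood above percentile 50: this one, both Cd3e and Cd247 promoter regions, and the region 9518 bp upstream of Cd3e. Ranked by -log10 q, 11 of the 27 did.

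The other shared regions of the windows were nearest to neighbouring genes. The Ube4a start, a ubiquitin-ligase gene beside Cd3g, carried a region at percentile 69.5 ± 2.54, and the start of Creg1, upstream of Cd247, one at 89.7 ± 1.62. An internal start of Pou2f1, which encodes the transcription factor Oct-1 and overlaps the end of Cd247, carried a region at percentile 99.9 ± 0.0564, with signals of 20.5, 20.1, 20.1 and 19.9. That region ranked 64, 127, 38 and 56 of 68696 in replicates 1 to 4, while no region nearest to a CD3 gene passed a signal of 9.77 in any replicate.

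As a set, the 33 shared regions were weaker in signal than shared regions in general. Their median percentile was 25.6, against 49.6 for all 68696, and 9 of 33 stood above percentile 50, against 49.6% of all. At or above a mean percentile of 90 there was 1 of 33, the Pou2f1 region, against 9.64% of all. The medians were 42.6 for the 9 regions on chromosome 9 and 14.2 for the 24 around Cd247. By -log10 q the set lay closer to the rest, with a median percentile of 40.8 against 49.5. In 29 of 33 regions the -log10 q percentile was above the signal percentile, as it was in 40.4% of all shared regions. At least 1500 bp of mean width was found in 10 of 33, against 10% of all, while the median width, 713 bp, was near that of all shared regions, 739 bp.

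By position, 19 of the 33 regions had their summits in introns, 9 within 1 kb of any annotated start of a protein-coding gene, short internal transcripts included, 2 in exons and 3 between genes. The signal percentiles of 17 of the 33 regions separated replicates 1 and 2 from replicates 3 and 4 without overlap, against 42.5% of all shared regions. Of the 17, 11 were higher in replicates 1 and 2, as were 14983 of 29195 such regions overall. The library tag and any other difference between these pairs of replicates cannot be told apart.

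Shared regions were more closely spaced around the CD3 genes than around the median gene. Counted per 100 kb of the gene body plus 30 kb on each side, Cd247 had 16.2 shared regions (24 in its window), Cd3e 11.3 (8), Cd3d 10.7 (7) and Cd3g 9.88 (7), against a median of 5.26 over all protein-coding genes. These values stood at percentiles 98.7, 89.6, 86.7 and 83.2 of all protein-coding genes. The 3 chromosome 9 windows overlap, so their values draw on the same regions. Among genes whose windows were within 10% of the same length, the percentiles were 99.7 for Cd247, 86.1 for Cd3e, 82.5 for Cd3d and 77.9 for Cd3g. At least 15 regions per 100 kb, which Cd247 alone of the 4 had, were found around 2.15% of genes. The order of the genes depended on the threshold. Among regions with a -log10 q of at least 10, Cd247 had 10.1 shared regions per 100 kb, beside 11.3 for Cd3e, 10.7 for Cd3d and 9.88 for Cd3g, against a median gene at 4.33. Among the 50000 strongest regions of each replicate, Cd247 was the lowest of the 4 with 5.38 (percentile 74.5 of all genes), beside 8.46 for Cd3e, 7.63 for Cd3d and 7.06 for Cd3g, against a median gene at 3.27.

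**Figure D4:**
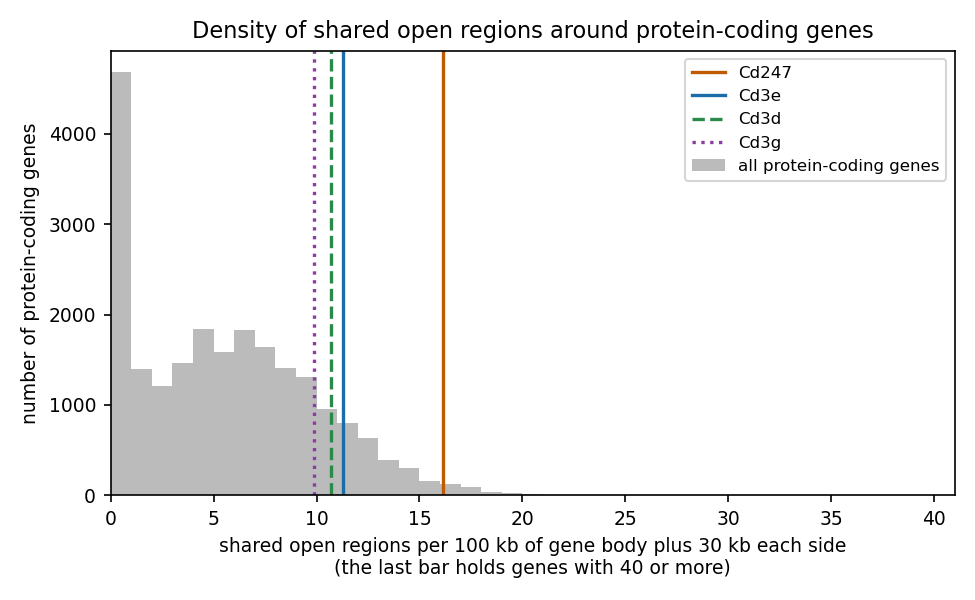
Number of protein-coding genes (y axis) by shared open regions per 100 kb of gene body plus 30 kb each side (x axis), with vertical lines at the CD3 genes. The lines stand at 16.2 for Cd247, 11.3 for Cd3e, 10.7 for Cd3d and 9.88 for Cd3g, all to the right of the median gene at 5.26.

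At the summits, E-box strings were the most frequent of the 11 strings reported, which were searched on both strands. An E-box lay within 50 bp of the summit in all 4 replicates in 8 of 33 regions, against 14.5% of all shared regions. These include the Cd3e promoter, the Cd3g and Cd3d promoter and the region starting the first intron of Cd247, so all 3 promoter regions of the complex had one within 50 bp of the summit. The E-box count depended on the distance, with 2 of 33 regions within 25 bp and 12 within 100 bp. At Cd3e the matches lie past the upstream stretch printed above, and the one at the summit of replicate 1 is not the one at the summits of replicates 2, 3 and 4. The AP-1 string was found in 5 of 33, against 15.04% of all. It was at the Cd3e 3′ end, at the start of the Cd247 first intron and at the widest region of that intron, and in the region 9518 bp upstream of Cd3e it lay near the summit in 3 of 4 replicates.

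The other strings were rarer. The SP string GGGCGG was found in 4 of 33 (6.32% of all), which were the Cd3g and Cd3d promoter, the region upstream of Cd247 and the starts of Ube4a and Creg1. The RUNX string was found in 3 of 33 (7.65% of all), and the TCF/LEF string in 2 (4.40%), at the Cd3e 3′ end and in the Cd247 first intron. The NFAT string TGGAAA was found in 2 (5.32%), and the ETS string in 1 (9.21%). The CTCF string (3.83% of all) and the IKAROS string TGGGAA (3.52%) were found in 1 each, and GATA (1.35%) and the CRE string TGACGTCA (0.279%) in none. A string near a summit is a description of the letters there and says nothing of binding.

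**Figure D5:**
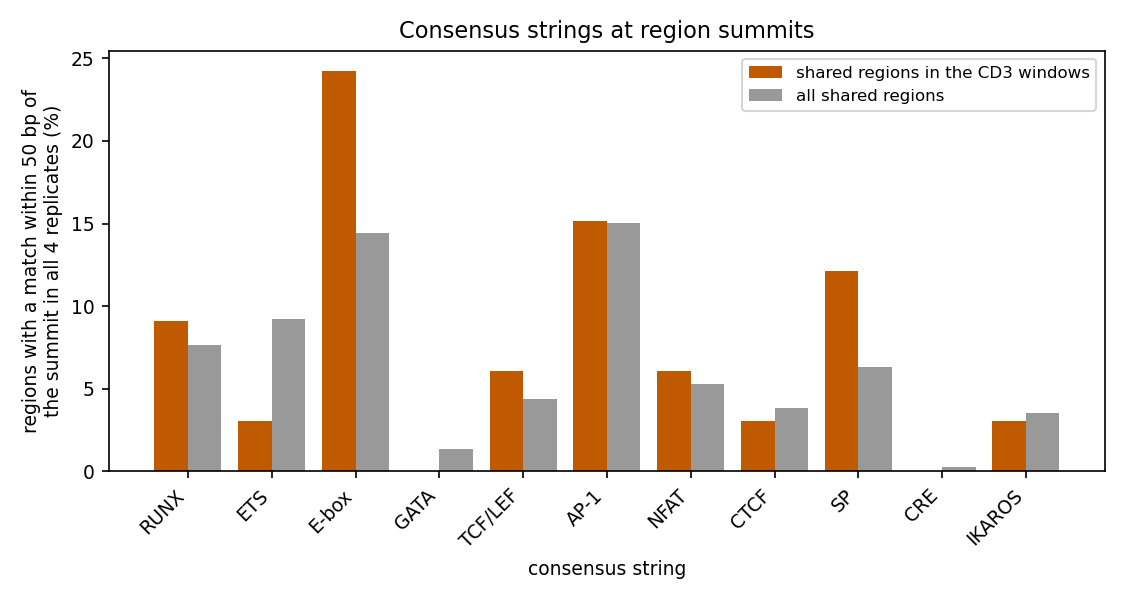
Percent of shared regions with a match within 50 bp of the summit in all 4 replicates (y axis) for each of 11 strings (x axis), for the 33 shared regions in the CD3 windows and for all 68696 shared regions. E-box strings were in 24.2% of the CD3 regions and 14.5% of all; with 33 regions, 1 region is 3.03%.

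Other genes of the receptor were read the same way. Of 25 genes of the proximal T-cell receptor pathway, 24 had an open promoter at the most upstream start, against 59.5% of all protein-coding genes, and Cd28, the co-stimulatory receptor, had one only at another annotated start. The signal percentile was 14.3 ± 2.43 at Lck, the kinase that phosphorylates ITAMs, 43.6 ± 3.90 at Zap70, the kinase that binds them, and 72.5 ± 1.36 at Lat, the adaptor that Zap70 phosphorylates. The median percentile over the 24 was 31.4, beside 37.8, 60.0 and 60.5 for the 3 CD3 promoter regions and 73.4 for all open promoters. The median density over the 25 was 12.2 shared regions per 100 kb, beside 11.0 for the CD3 genes.

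Of 5 genes for other signalling chains, 1 was open, against 59.5% of all protein-coding genes. Cd79b and Hcst fell in the lowest CpG class (8.61% open) and Cd79a, Fcer1g and Tyrobp in the next (26.8% open), so 1 of 5 is near the share of their classes. Hcst, the adaptor DAP10, which carries no ITAM, had a promoter region at percentile 24.5 ± 2.96. Among the others, Cd79b of the B-cell receptor had a region in 2 of 4 replicates, and Cd79a, Fcer1g and Tyrobp in none.

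The label of the cells was read from marker genes. Of the Th17 genes, Il17a and Il17f, which encode the cytokines of these cells, and the receptor genes Il23r and Ccr6 had open promoters. Their signal percentiles were 9.11 at Il17a, 49.5 at Il17f, 60.7 at Il23r and 56.3 at Ccr6. Cd4 was open at percentile 11.2. Cd8a was not open, but Cd8b1 was, at percentile 52.6, above Cd4 and Il17a. None of 4 myeloid, 3 B-cell and 2 NK-cell genes was open in all 4 replicates at the most upstream start, although Klrb1c was in 3 and Pax5 in 1, and Mpo and Pax5 were at another start. Pax5 apart, these genes fell in the same CpG-poor classes as the CD3 genes (8.61% and 26.8% open, against 59.5% of all genes), so closed promoters among them are near the share of their classes.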

How the data were processed

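Per the labels, ATAC-seq was made from 4 biological replicates, on mm10. The authors deposited 1 list of open regions per replicate. Each region has a signal (enrichment over background), −log10 p and −log10 q values, a display score and a summit offset, all made by the authors. The deposited score and −log10 p were not used. Which aligner and peak caller were used is not given in the sources used here. The lowest deposited −log10 q was 1.00 to 1.01. The deposited region names carry a library tag, KS134 for replicates 1 and 2 and KS136 for replicates 3 and 4, and the words 72hrs and ASTARR.insert; what these stand for is not given, so what they change in the signal was not tested.

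Only the autosomes, X and Y were used. Across replicates, regions overlapping by 1 bp or more were joined into union regions; a shared one had a region from all 4 replicates. The strongest region represented a replicate in ranking. Genes came from GENCODE M21, starts being the most upstream annotated. No group exists to compare with, so the only test of a difference was the exact two-sided sign-flip test between promoter regions over 4 replicates. Replicates standing apart were flagged by an outlier check, with the Dixon limit of 0.829 for 4 values. Genes named are the 4 members, protein-coding genes starting in the windows, the genes of the pathway and marker lists, and for each member the genes next above and below it in promoter percentile. Pou2f1 was added after its values were seen, and Mpzl2 is named for its position beside the window. The members and lists were chosen with earlier results of these data known. Results for some listed genes and 1 string are not reported here. Functions were tested on simulated lists with known open promoters. Python 3.11.15, numpy 2.4.6, pandas 2.3.3 and scipy 1.17.1 were used. Alternatives covered the threshold, the overlap, the windows, the ranking and leaving out each replicate; those with any annotated start, and all those of the gene lists, were added after seeing the data.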

Additional observations from a re-analysis of the deposited data

Results flagged for a closer look

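Of 42 quantities checked over the 4 replicates, 1 had a replicate standing apart from the other 3. The region 14608 bp upstream of the Cd3e start was at signal percentile 33.9 in replicate 3, against 50.1 to 51.5 in the others. Chance flags about 1 in 20 such groups of 4. The cause was not tested.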

How the results depend on the processing

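Counts fell mainly with thresholds. With a -log10 q of at least 10 the Cd247 window held 15 shared regions (10.1 per 100 kb). Among the 50000 strongest regions of each replicate it held 8 (5.38 per 100 kb), both windows together 15, and 17 in any replicate. Of the gene lists, 0 of 5 other signalling chains and 9 of 25 pathway genes were then open. The share of all protein-coding genes open at that setting is not given here, so these drops cannot be read as particular to the lists. With flanks of 50 kb the chromosome 9 window held 15. With a summit required within 1 kb of the start, 2 of 4 promoters (Cd3e and Cd3g) were open. Percentiles by -log10 q were 84.0 for Cd3e, 77.6 for Cd3d and Cd3g and 89.5 for Cd247. Among all regions of a replicate they were 67.4, 48.8 and 67.9 in that order, and among promoter regions 36.5, 18.9 and 37.0. From any annotated start Cd3d stood at 42.1. Within 25 bp of the summit 5 pairs of region and string, over the 12 strings searched, matched in all 4 replicates, within 50 bp 28 and within 100 bp 54. Without each replicate in turn, when shared means all 3 left, percentiles were 60.6 to 62.2 for Cd3e, 39.1 to 39.8 for Cd3d and Cd3g and 61.2 to 62.4 for Cd247, and 34 regions were shared each time. All 4 CD3 promoters, which are 3 distinct regions, were open under each threshold, promoter window, start and replicate left out that was run, the summit rule being the exception. The share of all protein-coding genes open is given here only for the main setting (59.5%) and for any annotated start (64.1%). Whether staying open under the stricter settings is unusual was therefore not tested. No paired analysis between groups was possible because the labels give 1 group; promoter regions were compared within replicates. Depth is unknown, so weak regions and missing ones cannot be told apart by counting error.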
